A study of Mus musculus with 8 samples.

Results

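The genes of steroid hormone synthesis were followed in mouse kidney tubuloids, the tubule-like structures that form when fragments of postnatal kidney are grown in Matrigel. The set held 10 of the 24063 genes in the files: Cyp11a1, Star, Cyp11b1, Cyp11b2, Cyp21a1, Cyp17a1, Hsd3b1, Nr5a1, Fdx1 and Fdxr. Cyp11a1 was chosen by its measured difference between the treatments described below, so its values in that comparison are a description and carry no test, while the other 9 were chosen for their place in the same pathway. All tubuloids came from mice of the genotype Pkd2fl/fl Pax8rtTA TetOCre mTmG, in which both copies of Pkd2 can be deleted. The Pax8 promoter drives the transactivator in renal epithelium, doxycycline (DOX) then switches on Cre recombinase, and the mTmG reporter marks recombined cells. Recombination is partial in this model, so that some epithelial cells keep Pkd2. RNA was sequenced from 4 libraries treated with DOX (numbered 9, 12, 19 and 21) and 4 treated with the vehicle dimethyl sulfoxide (DMSO, numbered 3, 5, 15 and 20). Treatment began on day 3 of culture and lasted 3 days, and RNA was taken on day 7. The sample labels gave the kidneys an age of postnatal day 7 to 10, and the methods of the study an earlier range. The study calls the 4 libraries of a group cultures, and nothing in the labels says whether they came from separate animals.

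Steroid hormones are made from cholesterol. Star carries cholesterol to the inner mitochondrial membrane, where Cyp11a1, the side-chain cleavage enzyme, converts it to pregnenolone with electrons passed from NADPH by Fdxr and Fdx1. Hsd3b1, Cyp21a1, Cyp17a1, Cyp11b1 and Cyp11b2 carry out later steps toward glucocorticoids, mineralocorticoids and sex steroids, and Nr5a1 is the nuclear receptor that switches on most of these genes in adrenal gland and gonad. Kidney tubules are better known as a target of steroid hormones than as a source of them, and Fdx1 and Fdxr serve other mitochondrial enzymes there, among them those that activate and degrade vitamin D.

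Each library held between 63922677 and 102716313 counts, summed over transcripts. DMSO 20 and DOX 19 stood apart, with 13243 and 13599 genes detected against 17054 to 17903 in the other 6 libraries. By Xist and Y-linked counts, DMSO 15 and DOX 21 came from males and the other 6 libraries from females. Pkd2 itself had 6130 ± 1114 normalised counts with DMSO and 4946 ± 772 with DOX (SD, n = 4 each), with overlapping ranges and an adjusted p of 0.999 in the DESeq2 fit. Its count covers the whole transcript and not only the deleted part. Of the renal epithelial markers, 9 of 10 were above 1 TPM (a level scaled by transcript length and library total) on average, their summed TPM was 679 to 2954 in DMSO and 871 to 1885 in DOX libraries, and Aqp2, the water channel of collecting duct principal cells, was at or near 0 in all 8. Stromal markers reached a summed TPM of 260 to 2615 in DMSO and 490 to 836 in DOX libraries.

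Markers of the classical steroid-making cells were sparse, with Mc2r and Insl3 as exceptions in most libraries. The summed TPM of 10 adrenal cortex markers was 0.21 to 15.2 in DMSO and 0.148 to 16.8 in DOX libraries, and 6 of the 10 are themselves genes of the set (Star, Nr5a1, Hsd3b1, Cyp11b1, Cyp11b2 and Cyp21a1). Mc2r, the corticotropin receptor, was the larger part of it in 5 libraries but not in DMSO 15, and was at 0 in DMSO 20 and DOX 19, while its partner Mrap was at 0 in 7 libraries and at 0.04 TPM in DMSO 3. Of 4 Leydig cell markers, Insl3 alone had counts, and Lhcgr, Hsd17b3 and Cyp17a1 were at 0 in all 8 libraries. Insl3 was at 8.36, 14.8, 6.84 and 0 TPM in DMSO 3, 5, 15 and 20. In DOX 9, 12, 19 and 21 it was at 5.65, 6.76, 2.96 and 3.09 TPM. The 6 adrenal medulla markers summed to at most 0.472 TPM. Mast cell markers summed to 0 to 4.32 TPM in DMSO and 0 to 0.659 TPM in DOX libraries, T cell markers to at most 0.0352 TPM, endothelial markers to at most 1.16 TPM, and macrophage markers to 4.03 to 28.7 TPM in DMSO and 0.0068 to 10.9 TPM in DOX libraries. In bulk RNA, fewer cells of a type and less RNA per cell cannot be told apart. No gene of these 9 cell type lists was called by the DESeq2 test described next, and 1, the stromal Col1a1, named after its values were seen, had an unadjusted p under 0.05.

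DOX was compared with DMSO to ask which transcripts differ soon after Cre is induced. All libraries shared the genotype, and none was a doxycycline control without Cre. Effects of the drug, of Cre and of Pkd2 loss therefore cannot be told apart. The call needed a DESeq2 adjusted p no higher than 0.05 together with a difference of 1.5-fold or more. Of 17011 genes with an adjusted p, 25 were called (0.147%), 14 higher and 11 lower with DOX (0.0647% lower). On simulated data with no gene changed, the same test made 27 false calls. The 25 calls are no more than that, so their number is no evidence that any gene changed. The quasi-likelihood test of edgeR called 0 of 15562 genes (0.0%) with 476 at an unadjusted p under 0.05, and limma-voom called 0 with 478. At an unadjusted p under 0.05, DESeq2 listed 899 of 19268 genes (4.67%). Among the steroid synthesis genes, 6 of 10 had an adjusted p, and 1 of these, Cyp11a1, was called. That gene was chosen by this difference, so the count is no finding.

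Cyp11a1 lies on chromosome 9 at 57998024 to 58027031 (RefSeq, GRCm38.p6), and the files hold 1 transcript of it. Its level was 13.1, 7.93, 2.43 and 47.9 TPM in DMSO 3, 5, 15 and 20. In DOX 9, 12, 19 and 21 it was 1.67, 0.928, 0.951 and 1.05 TPM. Every DOX library lay below every DMSO library, and the DOX levels kept within a narrow band while the DMSO levels spread widely. These TPM values came from 1174, 517, 204 and 2591 counts in DMSO and 146, 80, 64 and 74 in DOX libraries, in the same order. The fewest, 64 in DOX 19, had an exact Poisson 95% interval of 49.3 to 81.7 counts, which covers counting error only.

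The size of the Cyp11a1 difference rested in part on DMSO 20. After scaling for depth the means were 1284 ± 1405 normalised counts in DMSO and 82.7 ± 28.9 in DOX (SD, n = 4 each), a ratio of means of 15.5, and DMSO 20 alone held 64.6% of the DMSO sum. Without it the ratio of means was 7.33 and the ratio of medians 6.95. The closest pair of libraries across the groups, DMSO 15 and DOX 9, differed 1.65-fold. DMSO 15 was also the male DMSO library. Within the females the ratio of means was 19.5, with the lowest DMSO 4.20 times the highest DOX library, and the male DMSO library was 2.63 times the male DOX library. Macrophage markers, nearly all Ptprc and Cd68, moved partly with it, at a summed 15.9, 28.7, 4.03 and 26.02 TPM in DMSO 3, 5, 15 and 20 and 10.9, 10.6, 0.0068 and 3.84 TPM in DOX 9, 12, 19 and 21, while the defining receptor Csf1r was at most 0.431 TPM. Their part in the result was not tested. The values that chose the gene were a log2 fold change of -3.96 (SE 0.777) and an adjusted p of 0.000858 in DESeq2, the seventh smallest of all genes, and the log2 fold change was -2.87 without DMSO 20. For the edge of the call, Lars at an adjusted p of 0.0474 was the last gene called and Etv1 at 0.0579 the first above the limit. The edgeR fold change of Cyp11a1 was -3.95 on the log2 scale with an adjusted p of 0.999, and that of limma-voom was -3.21 with an adjusted p of 1.0.

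**Figure D1:**
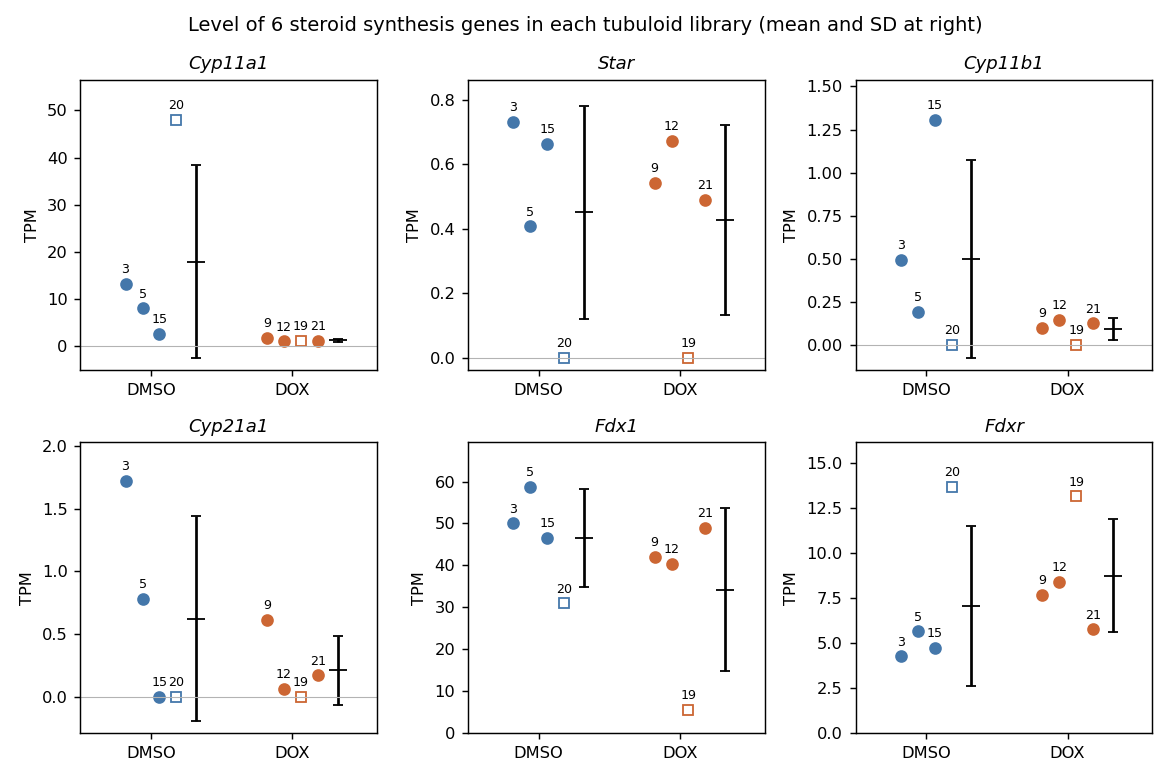
Level (TPM, linear axes) of 6 steroid synthesis genes in each of 4 DMSO (blue) and 4 DOX (orange) libraries, numbered as in the labels, with the mean and SD in black and the libraries of low gene detection, DMSO 20 and DOX 19, as open squares. Cyp11a1 is lower in all 4 DOX libraries, the other 5 genes overlap between the groups, and the open squares are at 0 for Star, Cyp11b1 and Cyp21a1.

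The RefSeq promoter sequences used here hold windows of 250 bases before to 50 after a start for 4 of the 10 genes, with 2 starts for Cyp11a1, 1 each for Fdx1, Fdxr and Hsd3b1. They were searched on both strands for AGGTCA, a core element bound by nuclear receptors, for CAAGGTCA or CAAGGCCA, the longer element known for Nr5a1, of which the first contains AGGTCA, and for CAAGGNNA, a looser form of it. The whole element was searched for after the matches of the looser form were seen. The element was chosen because Nr5a1 is the textbook activator of the pathway and was almost unread in these libraries. AGGTCA was found in 1 of the 5 windows and in 16.26% of all 32851 windows. The whole Nr5a1 element was found in 0 of the 5 windows and in 3.92% of all windows. The looser form was found in 3 of the 5 windows, those of Fdx1, Hsd3b1 and 1 start of Cyp11a1, and in 18.25% of all windows. The window at the other Cyp11a1 start and that of Fdxr held none of these motifs. The match of Hsd3b1, a gene with no reads, is not shown. The stretches of 30 bases below carry matches in capitals and read in the direction of the gene. The first 2 lie at the Cyp11a1 start nearer to the 3′ end of the gene, at chr9:58014912-58014941 and chr9:58014940-58014969, and the second of them holds the motif on the opposite strand. The third lies before Fdx1 at chr9:51963657-51963686 on the minus strand.
Cyp11a1, AGGTCA: gaggaaggggggAGGTCAccgctccatcag
Cyp11a1, CAAGGNNA: agcttctctctTAGCCTTGagctggtggtt
Fdx1, CAAGGNNA: cagaaaaagttCAAGGTGAactcttaacca
A match of letters is a description of the sequence and not evidence of binding.

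Star (chromosome 8, 25808474 to 25815982), which delivers cholesterol to Cyp11a1, was not separated between the groups. It stood at 0.731, 0.407, 0.664 and 0 TPM in DMSO 3, 5, 15 and 20, from 148, 60, 126 and 0 counts. In DOX 9, 12, 19 and 21 it stood at 0.543, 0.673, 0 and 0.491 TPM, from 107, 131, 0 and 78 counts. The groups overlapped, and the library with the most Cyp11a1 had no Star read, where 3 reads would have amounted to 0.0246 TPM. The fitted log2 fold change was -0.29 (SE 1.65, 95% interval -3.52 to 2.95, adjusted p = 0.999 in DESeq2). An interval this wide leaves differences of several fold in either direction undetectable, and the sign of the fit turned when DMSO 3, DMSO 15 or DOX 19 was left out (0.096, 0.014 and 0.13). Cyp11a1 exceeded Star 17.9, 19.5 and 3.66 times on the TPM scale in DMSO 3, 5 and 15, and 3.08, 1.38 and 2.14 times in DOX 9, 12 and 21.

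The mitochondrial electron carriers were read in every library. Fdx1, the ferredoxin that reduces Cyp11a1 (chromosome 9, 51943023 to 51963602), was at 50.02, 58.8, 46.7 and 30.9 TPM in DMSO 3, 5, 15 and 20. Its level was 42.1, 40.4, 5.54 and 48.9 TPM in DOX 9, 12, 19 and 21. The groups overlapped, and the lowest library of each group was the one with few genes detected. The fitted log2 fold change of Fdx1 was -0.55 (SE 0.602, 95% interval -1.73 to 0.63, adjusted p = 0.999 in DESeq2). With 1 library left out it ran from -0.81 without DOX 21 to -0.19 without DOX 19.

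Fdxr, the reductase that feeds Fdx1 (chromosome 11, 115268024 to 115277101), was at 4.25, 5.64, 4.72 and 13.7 TPM in DMSO 3, 5, 15 and 20. In DOX 9, 12, 19 and 21 it was at 7.69, 8.42, 13.2 and 5.75 TPM. Here the highest library of each group was again DMSO 20 or DOX 19, and the groups overlapped in TPM only through DMSO 20. The log2 fold change was 0.28 (SE 0.471, 95% interval -0.65 to 1.20, adjusted p = 0.999 in DESeq2), and it was -0.029 without DOX 19 and 0.74 without DMSO 20. The ratio of Fdx1 to Fdxr on the TPM scale was 9.88 to 11.8 in DMSO 3, 5 and 15 and 4.79 to 8.51 in DOX 9, 12 and 21, but 2.26 in DMSO 20 and 0.421 in DOX 19. The part of low gene detection in these 2 libraries was not tested.

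The enzymes of the later steps were detected at low levels or not at all. Cyp11b1, which makes corticosterone (chromosome 15, 74834892 to 74841643), had 0.495, 0.193, 1.30 and 0 TPM in DMSO 3, 5, 15 and 20. It had 0.102, 0.146, 0 and 0.126 TPM in DOX 9, 12, 19 and 21. The 3 DMSO libraries with reads lay above every DOX library, with 60, 17 and 148 counts against at most 17 in a DOX library, while DMSO 20 had none. The fitted log2 fold change was -2.66 (SE 1.66, 95% interval -5.91 to 0.58, adjusted p = 0.999 in DESeq2), and it was -1.47 without DMSO 15. Cyp11b2, the aldosterone synthase beside it on chromosome 15 (74850618 to 74856231), had 2 counts each in DMSO 3 and DMSO 15 and 0 in the other 6 libraries, too few for a fold change. How reads shared by these close relatives were counted is not stated, so the split between them is uncertain.

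Cyp21a1, the steroid 21-hydroxylase (chromosome 17, 34801348 to 34804426), was at 1.72, 0.778, 0 and 0 TPM in DMSO 3, 5, 15 and 20. It was at 0.613, 0.0642, 0 and 0.17 TPM in DOX 9, 12, 19 and 21. Both DMSO 15 and DMSO 20 were at 0, and the groups overlapped. The fit gave a log2 fold change of -1.65 (SE 2.27, 95% interval -6.09 to 2.79, adjusted p = 0.999 in DESeq2), and it moved to -0.14 without DMSO 3 and to -3.15 without DOX 9. Cyp17a1, the 17-hydroxylase of androgen and cortisol synthesis (chromosome 19, 46667165 to 46673000), and Hsd3b1, which turns pregnenolone into progesterone (chromosome 3, 98842356 to 98859794), had 0 counts in all 8 libraries. With 3 counts taken as the most that 0 allows, the one-sided 95% Poisson limit for counting error alone, each was at or under a limit of 0.0292 to 0.0469 CPM (counts scaled to the library total), depending on the library. Nr5a1, the regulator (chromosome 2, 38692656 to 38714542), had 4 counts in DMSO 15, 3 in DOX 9 and 0 in the other 6 libraries, which is at or near that limit and permits no comparison.

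How the other genes stood to Cyp11a1 by library depended on DMSO 20 and DOX 19, the libraries of low gene detection. The summed TPM of Star, Nr5a1, Hsd3b1 and the 4 later P450 enzymes was 2.97, 1.38, 2.02 and 0 in DMSO 3, 5, 15 and 20, and 1.28, 0.883, 0 and 0.787 in DOX 9, 12, 19 and 21. DMSO 20 thus had the highest Cyp11a1 and not 1 read of these 7 genes, and DOX 19 likewise had none. The correlation of Cyp11a1 with the other members over the 8 libraries, on log2(normalised count + 1), was -0.26 for Star, -0.08 for Cyp11b1, 0.10 for Cyp21a1, 0.28 for Fdx1 and 0.04 for Fdxr. Without DMSO 20 and DOX 19, a choice made after seeing the data, it was 0.23, 0.49, 0.57, 0.77 and -0.77 over 6 libraries, so these 5 values rest on which libraries are kept. Star and Cyp11b1 had a correlation of 0.90 and Star and Fdxr of -0.92, with Star and Cyp11b1 at 0 and Fdxr highest in DMSO 20 and DOX 19, and over the 6 libraries these were 0.71 and -0.15. The correlation of Fdx1 with Fdxr, -0.82 over 8 and -0.84 over 6 libraries, moved little. The points of these correlations share library and depth scaling.

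By mean TPM the order in DMSO was Fdx1 (46.6), Cyp11a1 (17.8), Fdxr (7.08), Cyp21a1 (0.624), Cyp11b1 (0.498), Star (0.451), Cyp11b2 (0.0126) and Nr5a1 (0.0072). Ranges of neighbours in this order overlapped, except that Fdxr lay above Cyp21a1 in every library. Single libraries set parts of this order: the DMSO mean was 7.82 TPM for Cyp11a1 without DMSO 20, 0.259 for Cyp21a1 without DMSO 3 and 0.229 for Cyp11b1 without DMSO 15. In DOX the order was Fdx1 (34.2), Fdxr (8.76), Cyp11a1 (1.15), Star (0.427), Cyp21a1 (0.212), Cyp11b1 (0.0934) and Nr5a1 (0.0052). There the ranges of Fdx1 and Fdxr overlapped, Fdxr lay above Cyp11a1 in every library, and Cyp11a1 lay above Star in every library. Without DOX 9 the DOX mean of Cyp21a1 was 0.0782 TPM. From Star downward the ranges of neighbours overlapped.

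**Figure D2:**
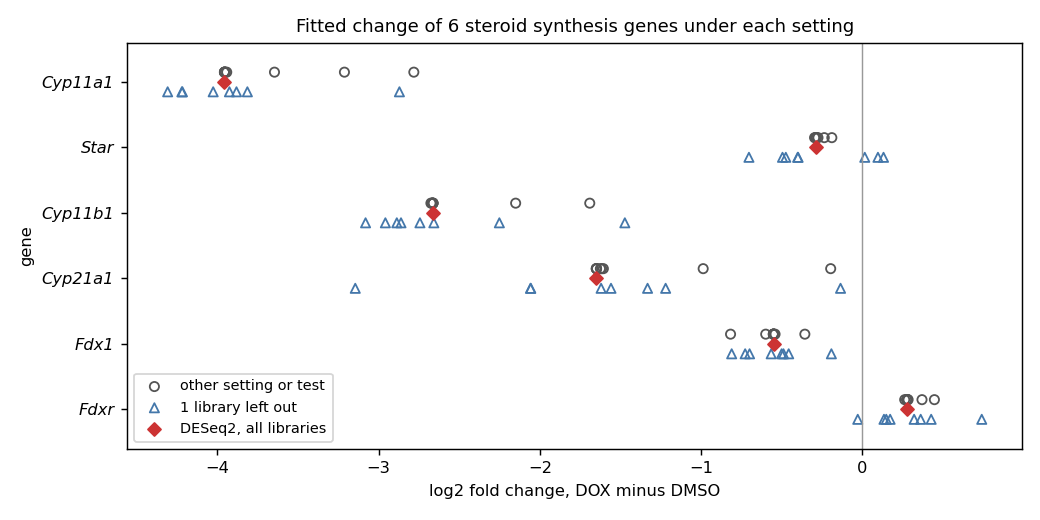
Log2 fold change (DOX minus DMSO) of 6 steroid synthesis genes in the DESeq2 fit on all libraries (red diamonds), under 10 other settings or tests (circles, as far as the gene was fitted) and with 1 library left out (triangles). Cyp11a1 stays between -4.31 and -2.78, whereas Star and Fdxr fall on both sides of 0.

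The supply of cholesterol was described by 2 lists. Of 14 genes of cholesterol uptake and transport, 0 were called, 6 were fitted lower and 8 higher, and the median log2 fold change was 0.12 against -0.07 over all genes with an adjusted p. One of the 14 had an unadjusted p under 0.05. Tspo, a cholesterol-binding protein of the outer mitochondrial membrane, was the most abundant, at 321 ± 112 TPM in DMSO and 269 ± 59.1 in DOX (SD, n = 4 each). Apoe, a lipoprotein component, stood at 143 ± 90.6 and 124 ± 31.0 TPM, and Npc2, which moves cholesterol out of lysosomes, at 103 ± 13.7 and 121 ± 10.8 TPM. The gene with the small p was Stard4, a cytosolic sterol carrier of the Star family, named here after its values were seen. Its log2 fold change was -1.20 (adjusted p = 0.115 in DESeq2), and it was called without DOX 12 (adjusted p = 0.0281) and with sex as a covariate (adjusted p = 0.00586).

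The 16 genes of cholesterol synthesis, from which the substrate of Cyp11a1 is made, were fitted lower in 15 cases, with a median log2 fold change of -0.56 against -0.07 over all genes, of which 55.6% were fitted lower. None was called, the smallest adjusted p was 0.259, and 7 of 16 had an unadjusted p under 0.05, all lower, by DESeq2, against 4.67% of all genes. By edgeR and limma-voom 0 were called. In normalised counts 3 of the 16, Hmgcs1, Idi1 and Insig1, had all DOX libraries below all DMSO libraries, against 190 of 17633 genes (1.08%), or 478 (2.71%) on either side. Cyp11a1 was the only 1 of the 6 steroid synthesis genes compared this way that did so. It was chosen by its difference between the groups, so its separation is no finding.

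Hmgcs1, the enzyme at the entry of the pathway, was at 164, 140, 144 and 155 TPM in DMSO 3, 5, 15 and 20. It was at 55.9, 146, 49.8 and 58.4 TPM in DOX 9, 12, 19 and 21. DOX 12 was at the DMSO level, above DMSO 5 and DMSO 15 in TPM, and the other 3 DOX libraries were clearly lower. Its log2 fold change was -1.11 (SE 0.347, adjusted p = 0.259 in DESeq2). Fdps, which makes farnesyl diphosphate, had 209 ± 83.5 TPM in DMSO and 97.9 ± 44.7 in DOX, and Sqle, the squalene epoxidase, 64.0 ± 7.56 and 41.7 ± 15.1 TPM (SD, n = 4 each). Their log2 fold changes were -1.27 and -0.74, with adjusted p of 0.427 and 0.280 in DESeq2. Idi1 and Insig1, named after their values were seen, had log2 fold changes of -1.42 and -1.08 (adjusted p = 0.262 and 0.438 in DESeq2).

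Some of the marker lists were fitted lower too, with none of their genes called: 9 of 9 tested renal epithelial markers were lower at a median of -0.53, 6 of 7 stromal markers at -0.997 and 3 of 3 macrophage markers at -1.65 on the log2 scale. Without DMSO 15 the stromal median was 0.0076, with 3 of 7 lower. Without DMSO 5 the renal epithelial median was -0.071, with 7 of 9 lower. The macrophage median stayed between -2.12 and -1.19 with 1 library left out. The 2 tested mast cell markers were both lower (median -2.74), as were 4 of 5 adrenal cortex markers (-0.29) and the 1 Leydig cell marker tested (-0.81). Without DMSO 5 the mast cell median was -0.46, with 1 of 2 lower. With 1 library left out, the adrenal cortex median ran from -0.70 to 0.44 and the Leydig cell value from -1.22 to -0.40. Of the endothelial markers 2 of 4 were lower (0.07) and of the adrenal medulla markers 1 of 2 (0.30), and no T cell marker was tested. Their part in the cholesterol synthesis values was not tested. Calls among the cholesterol synthesis genes appeared only with libraries left out, and the genes they added are named for that reason. Without DOX 12, Hmgcs1 and Sqle were called (adjusted p = 8.36e-09 and 0.00144). Without DMSO 20, Sc5d was called (0.0157), and Idi1 was called without both DMSO 20 and DOX 19 (0.0126) but in no fit without 1 library. As a median over the list, the libraries differed from the DMSO mean by 0.30, -0.09, 0.35 and -0.52 on the log2 scale in DMSO 3, 5, 15 and 20, and by -0.67, -0.19, -0.42 and -0.75 in DOX 9, 12, 19 and 21. DMSO 20, with the most Cyp11a1, was within the range of the DOX libraries here.

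**Figure D3:**
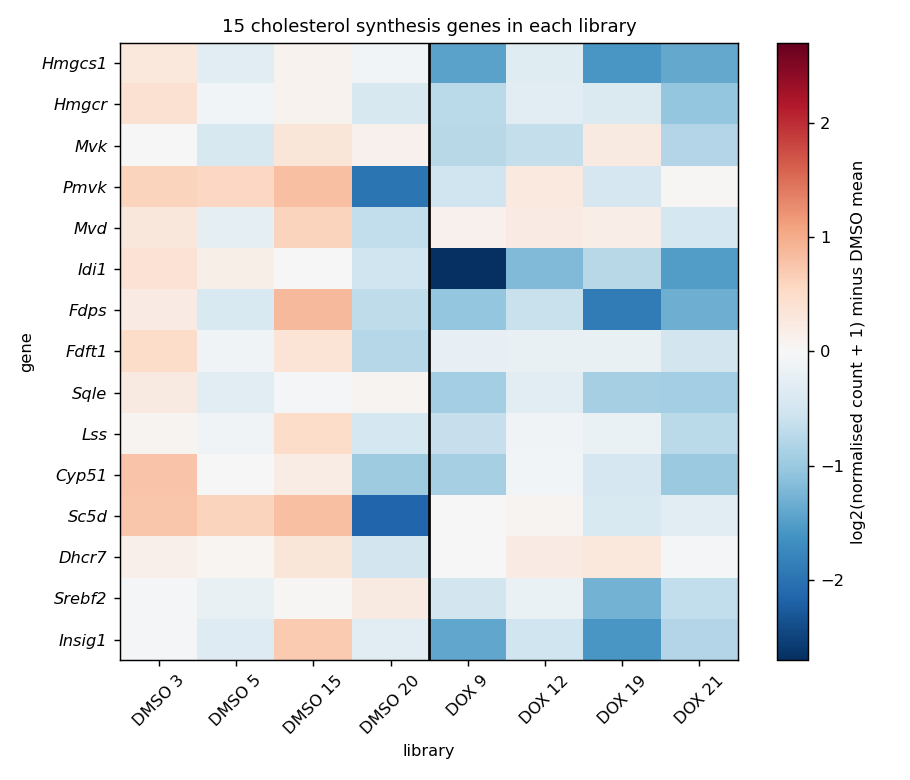
Difference of each of 15 cholesterol synthesis genes from its DMSO mean, in log2(normalised count + 1), in 4 DMSO (left of the line) and 4 DOX libraries, blue for lower and red for higher. Hmgcs1, Idi1 and Insig1 are lower in all 4 DOX columns than in any DMSO column, DOX 12 is paler than the other DOX libraries, and DMSO 20 is low for Sc5d and Pmvk.

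Electron transfer genes were abundant, and 0 of the 8 in the list, which holds Fdx1 and Fdxr, were called, with 3 fitted lower, 5 higher and a median log2 fold change of 0.07. One, Por, had an unadjusted p under 0.05. Cyb5a, cytochrome b5, was at 341 ± 124 TPM in DMSO and 274 ± 37.9 in DOX, and Cyb5r3, its reductase, at 351 ± 107 and 466 ± 98.0 TPM. Por, which serves the P450 enzymes of the endoplasmic reticulum such as Cyp21a1 and Cyp17a1, was at 84.5, 106, 70.7 and 120 TPM in DMSO 3, 5, 15 and 20. It was at 154, 147, 170 and 135 TPM in DOX 9, 12, 19 and 21. All DOX libraries lay above all DMSO libraries, and the log2 fold change was 0.61 (SE 0.193, adjusted p = 0.266 in DESeq2).

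Other mitochondrial P450 enzymes that draw on Fdx1 and Fdxr were low, and 0 of 3 were called, with 0 at an unadjusted p under 0.05 and a median log2 fold change of 0.23. With 1 library left out this median ran from -1.20 to 1.82, with fewer genes tested in some fits. Cyp24a1, which degrades active vitamin D, was at 3.41 ± 4.53 TPM in DMSO and 2.04 ± 2.09 in DOX, Cyp27a1 at 0.446 ± 0.529 and 1.10 ± 1.22, and Cyp27b1, which activates vitamin D, at 0.0955 ± 0.143 and 0.112 ± 0.0785 TPM (SD, n = 4 each). In the Hsd3b family 0 of 3 tested genes were called and 0 had an unadjusted p under 0.05, with a median of 0.36 on the log2 scale. Hsd3b7, which acts on bile acid precursors and not on steroid hormones, was the abundant member, at 61.6 ± 26.1 TPM in DMSO and 65.7 ± 11.8 in DOX, while Hsd3b3 was at 0.932 ± 0.929 and 2.48 ± 1.30 and Hsd3b2 at 0.0805 ± 0.0624 and 0.109 ± 0.0430. These paralogs are close in sequence, so the low values are uncertain.

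Among enzymes that interconvert steroids, 0 of 15 tested were called, 10 were fitted lower and 5 higher, and the median log2 fold change was -0.29, with 0 at an unadjusted p under 0.05. With 1 library left out this median ran from -0.63 to -0.07. The most abundant, Hsd17b10, Hsd17b12 and Hsd17b4, also work in fatty acid metabolism, and their log2 fold changes were -0.01, 0.00 and -0.22. Of 13 tested regulators 0 were called, with 6 fitted lower, 7 higher and a median log2 fold change of 0.00, and 1, the cyclic AMP responsive factor Creb1, named after its values were seen, had an unadjusted p under 0.05 (log2 fold change -0.71, adjusted p = 0.862 in DESeq2). Crem, a relative of Creb1, was at 454 ± 82.8 TPM in DMSO and 418 ± 120 in DOX, and Prkar1a and Prkaca, the regulatory and catalytic subunits of protein kinase A, were at 324 ± 37.0 and 394 ± 52.9, and at 98.3 ± 22.6 and 106 ± 12.4 TPM. Of 7 steroid receptors 0 were called and 0 had an unadjusted p under 0.05, with a median log2 fold change of 0.08. Gper1 was at 12.9 ± 6.79 and 16.0 ± 6.63 TPM, the glucocorticoid receptor Nr3c1 at 12.3 ± 5.47 and 15.1 ± 4.89, and the mineralocorticoid receptor Nr3c2 at 1.34 ± 1.04 and 1.45 ± 0.834 (SD, n = 4 each).

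**Figure D4:**
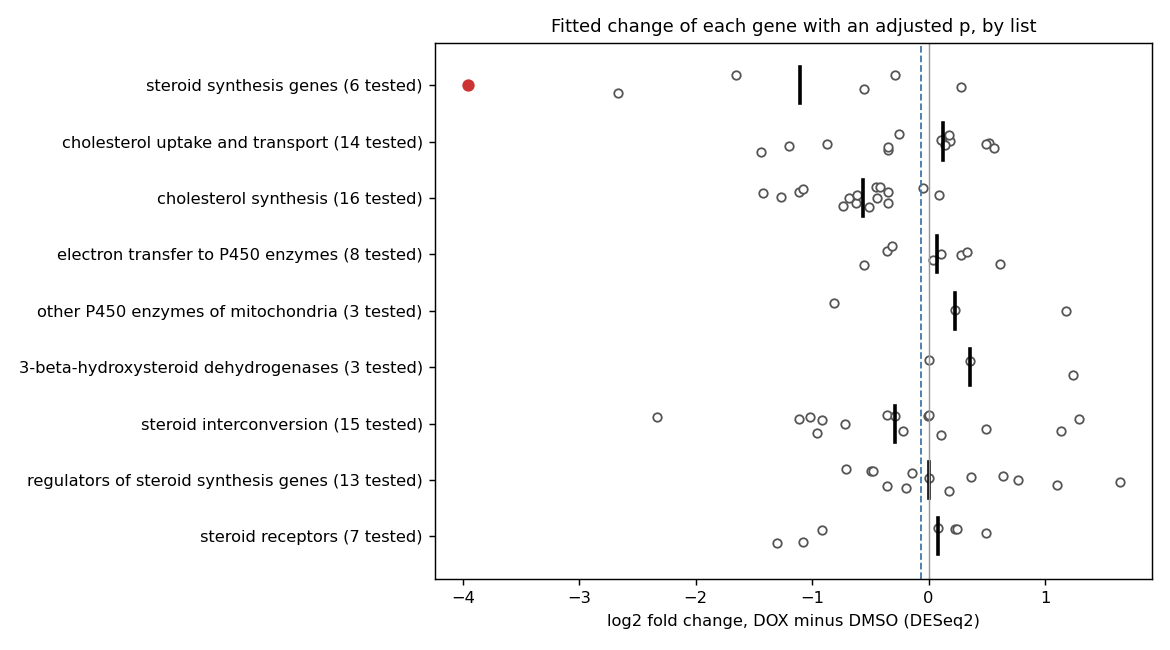
Log2 fold change (DOX minus DMSO, DESeq2) of every gene with an adjusted p in the steroid synthesis set and 8 related lists, each circle 1 gene, with list medians as black bars, 0 as a grey line and the median of all genes (-0.07) dashed. Cyp11a1, filled, is the only gene called, and the cholesterol synthesis list has its median at -0.56.

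Far1, Xpo1, Trip10 and Nox4 were among the 5 genes with a pattern most like that of Cyp11a1 over the 8 libraries, out of 14056 genes with a mean of at least 50 normalised counts. Their correlations with Cyp11a1 were 0.959, 0.948, 0.941 and 0.940, and in the 6 libraries without DMSO 20 and DOX 19 they were 0.918, 0.879, 0.891 and 0.944. The libraries share depth scaling and the DMSO 20 peak, and none of these 4 was among the first 5 by rank correlation. Xpo1, a nuclear export receptor, lay between 16954 and 29812 normalised counts with DMSO and between 12906 and 16186 with DOX. All DOX libraries of Xpo1 lay below all DMSO libraries, as for 190 of 17633 genes (1.08%). Xpo1 was picked for likeness to Cyp11a1, itself chosen by its group difference, so this separation is no finding. The groups overlapped for Far1, Trip10 and Nox4.

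For none of the 4 measured genes that the naming rule takes from beside Cyp11a1 on chromosome 9 did the groups separate. Ubl7 had 2330 to 4247 normalised counts with DMSO and 3267 to 4536 with DOX. Sema7a had 94.7 to 197 and 99.5 to 292, Ccdc33 0 to 55.4 and 0 to 17.8, and Gm16130 at most 1.70 in any library. The neighbours Gm9715 and Gm17322 were not analysed here. Stra6, a retinol transporter and the next gene beyond them (58063793 to 58154004), was named after its values were seen. It had 17442, 8731, 5518 and 18366 normalised counts in DMSO 3, 5, 15 and 20. In DOX 9, 12, 19 and 21 it had 11184, 3193, 4603 and 3195. The DMSO libraries stood in the order of their Cyp11a1 level, with DOX 9 the highest DOX library for both genes, but the Stra6 groups overlapped (log2 fold change -1.17, SE 0.564, adjusted p = 0.885 in DESeq2). Gm17322 overlaps Cyp11a1 on the same strand in GENCODE, so reads of the shared part cannot be assigned between them. Tnxa and Gml2 overlap Cyp21a1 and Cyp11b1 on the opposite strand, and the strand setting of the counting is not stated, so where they overlap the reads of both enzymes and of these genes cannot be told apart.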

How the data were processed

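RNA of 4 DOX and 4 DMSO tubuloid libraries was analysed, each placed in its group from its title. Per the labels, libraries were made with SMART-Seq v4 and poly-A selection. The authors aligned paired-end reads to mm10 with STAR on the BasePair platform. featureCounts and DESeq2 are also named in the submitters' processing notes, and versions and settings were not given in the sources used here. The deposited counts are whole reads assigned to each RefSeq transcript. The FPKM deposited by the authors divides the count by transcript length and by the total of the library, and was used only to check library totals and transcript lengths. The TPM deposited by the authors was rescaled to a fixed sum per library, and was used for levels.

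Counts and TPM were summed by symbol. Reads shared by isoforms can count for each of them, so totals may overstate reads, and the transcript with most counts per gene gave 39252852 to 64561676 per library. DESeq2 1.42.0 (R 4.3.3) was the main test, with Benjamini-Hochberg adjustment and alpha 0.1 as the study's methods name them. Chosen here were the fit on all 8 libraries with no covariate, Cook's filter, independent filtering and unshrunken fold changes. The alternatives were edgeR 4.0.16, limma-voom (limma 3.58.1), TMM factors, 2 low-count filters, both DESeq2 filters off, 1 transcript per gene, sex as a covariate, other thresholds and omission of libraries. Each group held libraries of both sexes and so of more than 1 animal, but nothing says that every library came from a separate animal, so part of the spread that p-values measure may be technical. Comparing groups on one side used genes with a mean of at least 2 normalised counts.

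Members and gene lists were chosen with earlier results of these data known. Named genes were all members, the 3 genes of highest mean TPM and any called gene of each list, the 5 genes most like Cyp11a1, and the 3 RefSeq genes on each side of it. Others are marked where named, except Aqp2, Mrap, Sc5d and Pmvk, which were also named after their values were seen. Coordinates and promoter windows are from RefSeq on GRCm38.p6, the assembly of mm10. Steroid sulfatase (Sts) and the macrophage marker Adgre1 were not analysed here. One gene of the cholesterol synthesis list and 1 of the 5 like genes are counted but not reported here.

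The tests were tested on simulated data for this comparison, with 200 of 17550 genes changed 4-fold. DESeq2 found 96 of them beside 59 false calls, and edgeR 82 beside 7. When nothing was changed, false calls numbered 27 by DESeq2 and 0 by edgeR. The DESeq2 number is no smaller than the 25 genes that test called in the real libraries.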

Additional observations from a re-analysis of the deposited data

Results flagged for a closer look

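Single libraries stood far from the other 3 of their group in 6 of 14 groups of 4 examined, where chance gives about 1 in 20 for independent normal values. The 14 groups are measures of the same libraries and so are not independent, and the count cannot be set against that rate. The measure is the gap to the nearest library as a share of the range of the group. For Star it was 0.835 in DMSO 20 and 0.972 in DOX 19, which had no read of it. Cyp11b1 in DOX 19 gave 0.925. In DMSO 20, Fdx1 was low with a share of 0.884 and Fdxr high with a share of 0.884. The number of genes detected in DOX 19 gave 0.87. All 6 are values of the libraries with few genes detected.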

How the results depend on the processing

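No paired analysis was possible because the groups share no replicate number. The count of all called genes was 25, and it was 48 with the Cook's filter off, 16 with at least 10 counts in every library, 0 by edgeR, 0 by limma-voom, 43 with sex as a covariate, 51 without both libraries of low gene detection, 40 at an adjusted p limit of 0.1 and 13 at a 2-fold minimum. Leaving out 1 library gave 14 to 75: 14 without DMSO 3, 75 without DMSO 15, 48 without DMSO 20 and 38 without DOX 21. The 1 called member, Cyp11a1, became 0 by edgeR and by limma-voom and stayed 1 in every fit without 1 library. In the cholesterol uptake list 1 gene in place of 0 was called with sex as a covariate, and 0 to 1 with 1 library left out. In the cholesterol synthesis list 1 in place of 0 was called without both libraries of low gene detection, and 0 to 2 with 1 library left out. The sign of Star turned without DMSO 15 (0.014), DMSO 3 (0.096) and DOX 19 (0.13), and that of Fdxr without DOX 19 (-0.029), within ranges of -0.70 to 0.13 for Star and -0.029 to 0.74 for Fdxr with 1 library left out. Of the 5 genes most like Cyp11a1, 0 were among the first 5 by Spearman correlation. In each of these cases the cause was not tested. Of 105 alternative fits of a member's fold change, 99 kept direction and side of the threshold. Among alternative mean levels, 60 of 60 moved by less than the SD. This outcome was fixed in advance and is no support. Leaving out 1 of 4 libraries cannot move a mean by the SD, and each of these genes has only 1 transcript. Of the 60 means, 4 moved by over 1.5-fold and stand in the report. The spread between libraries leaves wide intervals for Star, Cyp11b1 and Cyp21a1 (SE of Star 1.65, and 0.483 without DMSO 20 and DOX 19). Cyp11b2 and Nr5a1 had at most 4 counts in a library, too few for a comparison.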
